A study of Mus musculus with 2 samples.

Results

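Open chromatin was described at 9 genes of the oligodendrocyte lineage and of myelin: Mbp, Mog, Mag, Mobp, Cnp, Olig1, Olig2, Myrf and Pdgfra. They were chosen by name, with their mm10 coordinates from GENCODE M21, and all 9 were found among the 21938 coding genes annotated on the autosomes, X and Y. The locus of each gene was its gene body with 50 kb on each side, and the loci of Olig1 and Olig2 overlap. The data are DNase-seq, in which nuclei are digested lightly with DNase I and the ends of the cuts are sequenced, so that accessible DNA gathers more cuts. The study has 1 group and no second condition: whole cerebellum from males of B6CASTF1/J, a first-generation cross between B6 and CAST mice, at 8 to 10 months of age. It holds 2 biological replicates, each a library from a pool of 2 biosamples. No test between groups is therefore possible, and each value is given for both replicates. Whole tissue holds many cell types, so an open site in few cells and a weakly open site in many cells cannot be told apart.

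Oligodendrocytes wrap axons of the central nervous system in myelin, a stack of compacted membrane. MBP holds the cytoplasmic faces of that membrane together, MOBP is a further protein of the compact layers, and CNP lies in the cytoplasmic channels between them. MAG faces the axon on the innermost wrap, and MOG is displayed on the outermost surface. OLIG1 and OLIG2 are bHLH factors that set up and maintain the lineage, MYRF is the membrane-bound factor that switches on myelin genes as the cells mature, and PDGFRA is the growth factor receptor of the precursor cells. In the cerebellum these cells sit mostly in the white matter and are far outnumbered by granule neurons.

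For each library the authors deposited a stricter and a longer list of peaks, a table that gives the false discovery rate (FDR) of the cut rate along the genome, and footprints, which are short stretches protected from the enzyme within cut regions. A peak at a start overlapped the 1 kb on either side of any annotated transcript start of the gene, and a distal peak lay over 1 kb from every annotated start of any gene. Sequences are from the RefSeq copy of the mm10 (GRCm38) reference genome, which carries the B6 alleles. The strongest distal peak of the stricter list that both replicates shared is printed first for 6 of the loci, because most of the open chromatin near these genes was distal or belonged to neighbours. The peak inside Pdgfra is printed with them because it was the strongest peak within 1 kb of any start of that gene. It is labelled by the internal start near it, but the printed stretch is intronic and does not hold that start. Its centre lies 408 bases from it. Letters run 5′ to 3′ on the plus strand of mm10, and capitals mark bases inside a footprint of either replicate.
Mog distal peak, chr17:37028661-37028860: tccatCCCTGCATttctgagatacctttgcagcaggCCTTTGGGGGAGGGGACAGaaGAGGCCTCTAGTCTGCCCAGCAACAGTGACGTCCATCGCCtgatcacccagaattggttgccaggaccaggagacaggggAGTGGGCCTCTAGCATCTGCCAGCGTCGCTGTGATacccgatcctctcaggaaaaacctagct
Mobp distal peak, chr9:120191501-120191700: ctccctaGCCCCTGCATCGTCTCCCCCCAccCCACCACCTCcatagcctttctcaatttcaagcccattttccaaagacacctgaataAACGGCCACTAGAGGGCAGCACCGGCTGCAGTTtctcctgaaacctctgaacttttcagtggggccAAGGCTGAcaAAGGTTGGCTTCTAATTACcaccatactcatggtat
Cnp distal peak, chr11:100570521-100570760: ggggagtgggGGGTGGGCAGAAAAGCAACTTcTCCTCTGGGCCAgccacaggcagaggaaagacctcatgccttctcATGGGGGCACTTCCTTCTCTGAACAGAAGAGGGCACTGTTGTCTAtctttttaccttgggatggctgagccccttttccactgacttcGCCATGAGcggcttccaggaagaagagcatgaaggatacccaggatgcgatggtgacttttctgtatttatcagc
Olig1 distal peak, chr16:91314221-91314400: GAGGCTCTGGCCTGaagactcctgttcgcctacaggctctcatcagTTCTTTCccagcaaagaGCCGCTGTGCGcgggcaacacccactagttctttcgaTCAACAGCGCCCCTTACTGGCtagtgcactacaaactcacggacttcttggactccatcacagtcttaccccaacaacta
Myrf distal peak, chr19:10188441-10188720: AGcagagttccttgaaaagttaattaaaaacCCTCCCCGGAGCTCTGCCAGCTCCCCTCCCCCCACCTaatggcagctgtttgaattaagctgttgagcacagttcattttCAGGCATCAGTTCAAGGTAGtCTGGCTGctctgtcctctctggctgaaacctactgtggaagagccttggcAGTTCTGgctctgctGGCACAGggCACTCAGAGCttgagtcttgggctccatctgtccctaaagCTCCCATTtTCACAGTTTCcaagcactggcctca
Mag distal peak, chr7:30958621-30958814: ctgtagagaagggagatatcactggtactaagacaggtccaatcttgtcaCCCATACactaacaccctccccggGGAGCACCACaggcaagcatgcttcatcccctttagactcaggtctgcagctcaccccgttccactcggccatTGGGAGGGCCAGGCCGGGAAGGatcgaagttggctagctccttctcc
Pdgfra internal start, chr5:75157161-75157320: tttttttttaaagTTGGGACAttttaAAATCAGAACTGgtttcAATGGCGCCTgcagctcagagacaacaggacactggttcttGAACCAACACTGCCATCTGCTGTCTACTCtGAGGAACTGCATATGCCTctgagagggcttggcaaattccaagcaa

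At Mog, all 4 footprints of replicate 1 in the printed stretch overlapped a footprint of replicate 2. The longest was 38 bp in both replicates and ran over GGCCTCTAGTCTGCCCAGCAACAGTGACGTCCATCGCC in replicate 1. Another, of 35 and 31 bp, held the E-box CAGATG on the minus strand, a letter sequence that bHLH factors can bind, and 29.5% of all 25112 shared distal peaks hold CAGATG in their central 200 bp. The footprints at Mobp and Cnp held letters of another kind. At Mobp, a footprint of 33 and 31 bp held CCACTAGAGGGC, an exact match to the consensus of CTCF (which allows either of 2 letters at 2 places), a zinc finger protein that is present in most cell types and marks insulators and loop anchors. At Cnp, a footprint of 45 and 43 bp held ACAGAAGAGGGC, which has 1 mismatch to that wider form. At Pdgfra, a footprint of 12 bp, AAATCAGAACTG, had the same borders in both replicates. Downstream of it, footprints of 25 and 29 bp held the E-box CAGATG on the minus strand, which is part of ACAGCAGATGGC, with 1 mismatch to the wider CTCF form. Footprints of 16 and 18 bp held the E-box CATATG, which 5.41% of all shared distal peaks hold. The peak of the Mag locus had 3 footprints in replicate 1 and 0 in replicate 2.

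The promoters of 5 members follow, as the 120 bases before the most upstream start, on the strand of the gene. They are printed because these starts had a stricter peak in 1 replicate (Cnp) or in neither. Capitals mark matches, on either strand, to the MYRF letters CTGGNAC, to the NFI core letters TTGGCA, or to the NRF1 consensus.
Mog promoter: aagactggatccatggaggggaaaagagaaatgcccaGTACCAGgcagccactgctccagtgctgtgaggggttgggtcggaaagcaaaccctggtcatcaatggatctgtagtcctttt
Mag promoter: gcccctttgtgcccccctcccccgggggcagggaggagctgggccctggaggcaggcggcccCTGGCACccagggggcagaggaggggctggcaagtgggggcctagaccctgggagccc
Cnp promoter: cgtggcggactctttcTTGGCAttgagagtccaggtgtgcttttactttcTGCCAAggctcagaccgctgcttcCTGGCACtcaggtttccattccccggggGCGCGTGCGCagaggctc
Mobp promoter: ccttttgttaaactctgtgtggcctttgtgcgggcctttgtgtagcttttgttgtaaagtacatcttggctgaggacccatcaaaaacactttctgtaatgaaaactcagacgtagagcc
Olig2 promoter: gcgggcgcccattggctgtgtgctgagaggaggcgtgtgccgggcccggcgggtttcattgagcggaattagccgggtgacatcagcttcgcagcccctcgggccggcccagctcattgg

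The letters CTGGNAC were found within 250 bases before the first start of 5 of the 9 members (Mbp, Mog, Mag, Cnp and Myrf), and 15.9% of 21938 coding promoters of that length hold them. The closest match to a start was CTGGCAC, 46 bases before that of Cnp and 58 before that of Mag, and Mog held CTGGTAC 83 bases before its start on the minus strand. None of those 3 lay in a footprint of either replicate. The promoters of Mobp and Olig2 held none of these letters, and differed in base composition. Mobp had 37.6% G and C with 2 CpG, and Olig2 66% with 18 CpG, against medians of 54.0% and 8 over coding promoters. Several other consensus forms were searched, and each was in 0 to 2 of the 9 promoters. Of the 22 distal peaks of the loci that both replicates shared, 2 held CTGGNAC in their central 200 bp. The share over all 25112 shared distal peaks was 21.3%. A match is a description of letters and shows no binding.

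The promoter of Myrf, the 250 bases before its first start, is printed with footprints of either replicate in capitals, because 5 footprints fell in it.
Myrf promoter: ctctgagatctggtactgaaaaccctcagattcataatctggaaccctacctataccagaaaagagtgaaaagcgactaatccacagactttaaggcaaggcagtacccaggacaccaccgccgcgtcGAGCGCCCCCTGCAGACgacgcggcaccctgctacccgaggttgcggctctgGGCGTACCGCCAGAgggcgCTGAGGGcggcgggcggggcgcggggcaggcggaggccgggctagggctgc

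The Myrf promoter held 21 CpG and 63.6% G and C. Of its footprints, 3 were of replicate 1 and 2 of replicate 2, and the replicates overlapped at 2 places. At the place nearer the start, replicate 1 had a footprint of 14 bp, GGCGTACCGCCAGA, and replicate 2 one of 7 bp, CGCCAGA. They covered 8 and 7 of the 12 letters of CCGCCAGAGGGC, an exact match to the wider CTCF form used at Mobp. At the other, footprints of 7 and 11 bp shared 1 base and form the first run of capitals.

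Starts of these genes were seldom marked by a strong peak. In the stricter list, 2 of the 9 genes, Mbp and Pdgfra, had a peak at a start in both replicates, while 55.9% of all coding genes did. The count was 4 of 9 in replicate 1 and 3 of 9 in replicate 2, beside 58.4% and 57.2% of coding genes. No start peak was in the stricter list of either replicate for 4 of 9 (Mog, Mag, Mobp and Olig2), beside 40.3% of coding genes. In the longer list 7 of 9 had one in each replicate and in both, beside 63.4%, 62.2% and 60.5% of coding genes, and 2 of 9 in neither, beside 34.9%. The choice of list thus decided the count, and the stronger part of the stricter list, at or above its median signal, left 1 of 9. The share of coding genes was not computed for that part, so this count cannot be set against it.

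**Figure D1:**
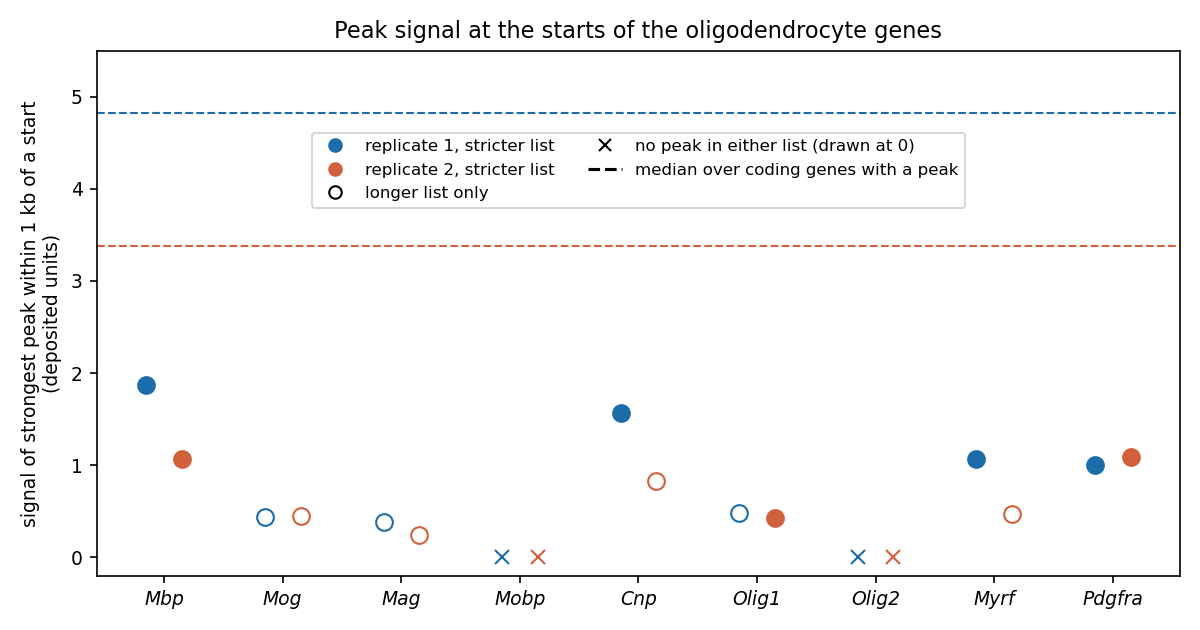
Signal of the strongest peak within 1 kb of any start of each gene, in the authors' deposited units, for replicate 1 (blue) and replicate 2 (orange). Filled points are in the stricter list, open points in the longer list alone, crosses mark no peak in either list, and dashed lines are the medians over coding genes with a peak; all points lie below the lines at 4.83 and 3.38.

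Mbp had the strongest such peak in replicate 1, and Pdgfra in replicate 2. The peak of Mbp had a signal of 1.87 in replicate 1 and 1.07 in replicate 2 (1.47 ± 0.567, SD, n = 2). Over coding genes with a peak at a start the median was 4.83 and 3.38, and 17.5% and 13% of them lay below Mbp. This peak sat at chr18:82474941-82475360, over the first exon at the most upstream start, from which the golli proteins are made. The starts of the classic myelin isoforms lie 79.3 to 79.4 kb downstream. No stricter peak lay within 1 kb of them in either replicate, and the longer list gave 0.799 and 0.784 there. The lowest FDR at these starts was 0.000901 and 0.00159, against 8.7e-10 and 3.4e-11 at the upstream start. The only stricter peaks at a start of Mbp were therefore those at its upstream end.

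Pdgfra showed its peak away from its first start. The strongest lay at chr5:75157161-75157320 in an intron, 4.95 kb downstream of the most upstream start and within 1 kb of an internal start of a coding transcript. Its signal was 0.999 and 1.09 (1.05 ± 0.0667, SD, n = 2), nearly equal between replicates. Within 1 kb of the most upstream start, 75 bases had an FDR under 0.05 in replicate 1 and 0 in replicate 2. All 75 lay at the far upstream end of that window, in the 100-bp bin that begins at -1000 bases, and none at the start itself. A further 2 stricter peaks at internal starts, of 0.571 and 0.899, were found in replicate 1 alone. Of the 9 annotated starts of the gene, 8 had a base with an FDR under 0.05 within 1 kb in replicate 1 and 2 in replicate 2.

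A start peak was in the stricter list of 1 replicate for Cnp, Myrf and Olig1. The peak of Cnp had a signal of 1.56 in replicate 1, and the longer list gave 0.828 in replicate 2. Myrf had 1.06 in replicate 1, and 0.468 in the longer list of replicate 2. Olig1 had 0.424 in replicate 2, and 0.485 in the longer list of replicate 1. The same starts were thus open in both libraries at a lower threshold, and the lists differ in which of them passed. At Myrf the lowest FDR was 2e-07 and 8.3e-05, and at Cnp 8.7e-05 and 0.00112.

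Mog and Mag had a start peak in the longer list alone. Its signal was 0.435 and 0.443 at Mog, whose first start had 89 and 23 bases with an FDR under 0.05. At Mag it was 0.378 and 0.246, with 149 and 138 such bases. Both genes encode surface proteins of the myelin sheath, and at both the values were among the 3 lowest of the 7 genes with a start peak in the longer list of both replicates.

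Mobp and Olig2 had no start peak in either list of either replicate. Within 1 kb of each of the 5 starts of Mobp, and of the single start of Olig2, 0 bases had an FDR under 0.05. A base with an FDR under 0.05 lay within 1 kb of the first start of 59.9% and 58.7% of coding genes. For Olig2, whose gene body had 0 peaks of either list and 0 footprints in both replicates, no open site was detectable at this depth.

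**Figure D2:**
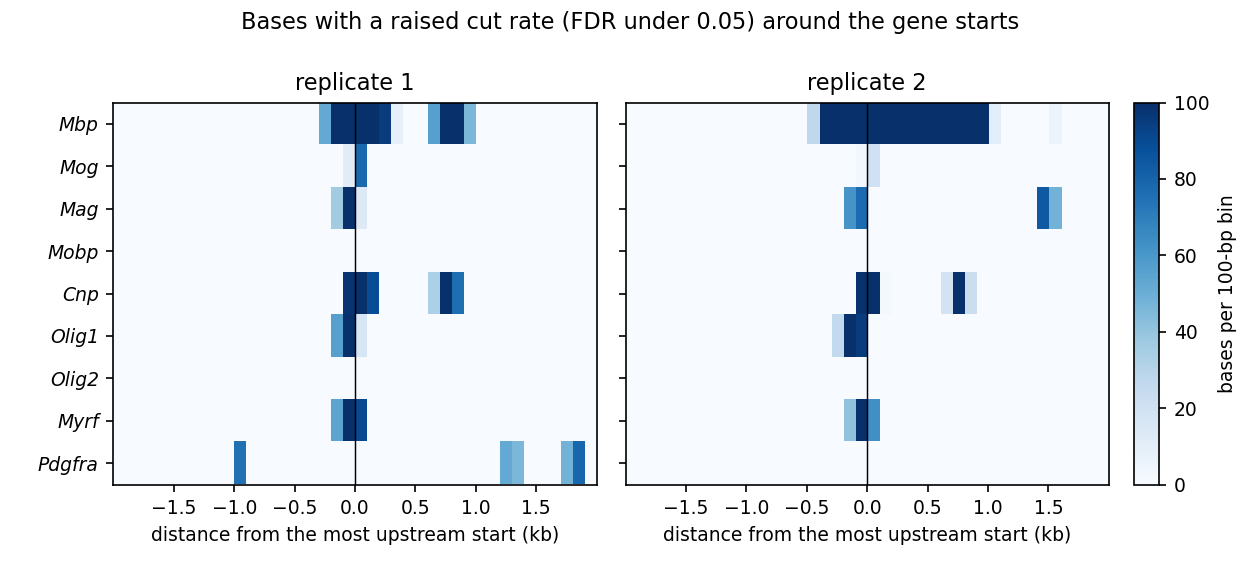
Bases per 100-bp bin with an FDR of the cut rate under 0.05, within 2 kb of the most upstream start of each gene and along its strand, for replicate 1 (left) and replicate 2 (right). Mbp has the widest stretch in both replicates. The rows of Mobp and Olig2 are empty in both, and that of Pdgfra is empty in replicate 2.

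Of 37 other oligodendrocyte genes, 14 had a start peak in the stricter list of both replicates, 4 in 1 replicate and 19 in neither, against 55.9% of coding genes in both. Among 18 genes of myelin and mature cells, 5 had one in both, led by Hapln2, a link protein of the nodal matrix, at 4.82 ± 1.19 (SD, n = 2) and Fa2h, which makes hydroxylated myelin lipids, at 2.56 ± 0.968 (SD, n = 2). Aspa and Cldn11 were among the 10 with none. Among 10 factors of the lineage, 4 had one in both, led by Sox8 at 1.54 ± 0.483 and Sox6 at 0.733 ± 0.0983 (SD, n = 2). Sox9, among those 4, is also counted as an astrocyte marker below. Hes5 and Nkx2-2 were among 5 with none in the stricter list. At Hes5 the longer list gave 1.71 and 1.18, and at Nkx2-2 it gave no start peak. Among 9 precursor genes, 5 had one in both, led by Tnr at 2.45 ± 0.369 and Lhfpl3 at 0.541 ± 0.184 (SD, n = 2), and C1ql1 and Cspg4 were among 4 with none. Each of the 3 groups thus held genes with and without a start peak in the stricter list, as the 9 members did. In the longer list, 21 of the 37 had one in both replicates and 10 in neither, beside 60.5% and 34.9% of coding genes.

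The tissue label was checked with markers of other cells. All 8 granule cell markers had a start peak in the stricter list of both replicates, beside 55.9% of coding genes. Purkinje cell markers had one at 3 of 6 genes (Calb1, Itpr1 and Rora), and markers of Bergmann glia and astrocytes at 3 of 6. Both counts are near the coding share and so say little about those cells. Microglia markers had one at 0 of 8 and endothelial and mural markers at 0 of 6. The share of oligodendrocytes in each library was not measured, and its part in the signals was not tested.

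Most open chromatin in the 9 loci lay away from the genes' own starts. Together the loci held 61 stricter peaks in replicate 1 and 57 in replicate 2. Of these, 7 and 5 were at a start of a member and 28 and 24 at a start of another gene. Loci that reach 50 kb past the gene take in much other DNA, and these counts were not made over loci of all coding genes. The other 26 and 28 were distal, which is 42.6% and 49.1%, below the 56.0% and 60.6% of all stricter peaks. Centres of the 61 and 57 peaks lay in introns for 30 and 30, in intergenic DNA for 12 and 13, and in coding exons for 7 and 4. The shares of these positions over all stricter peaks were not computed. A footprint lay in 96.7% and 89.5% of them, against 88.3% and 84.1% of all stricter peaks.

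**Figure D3:**
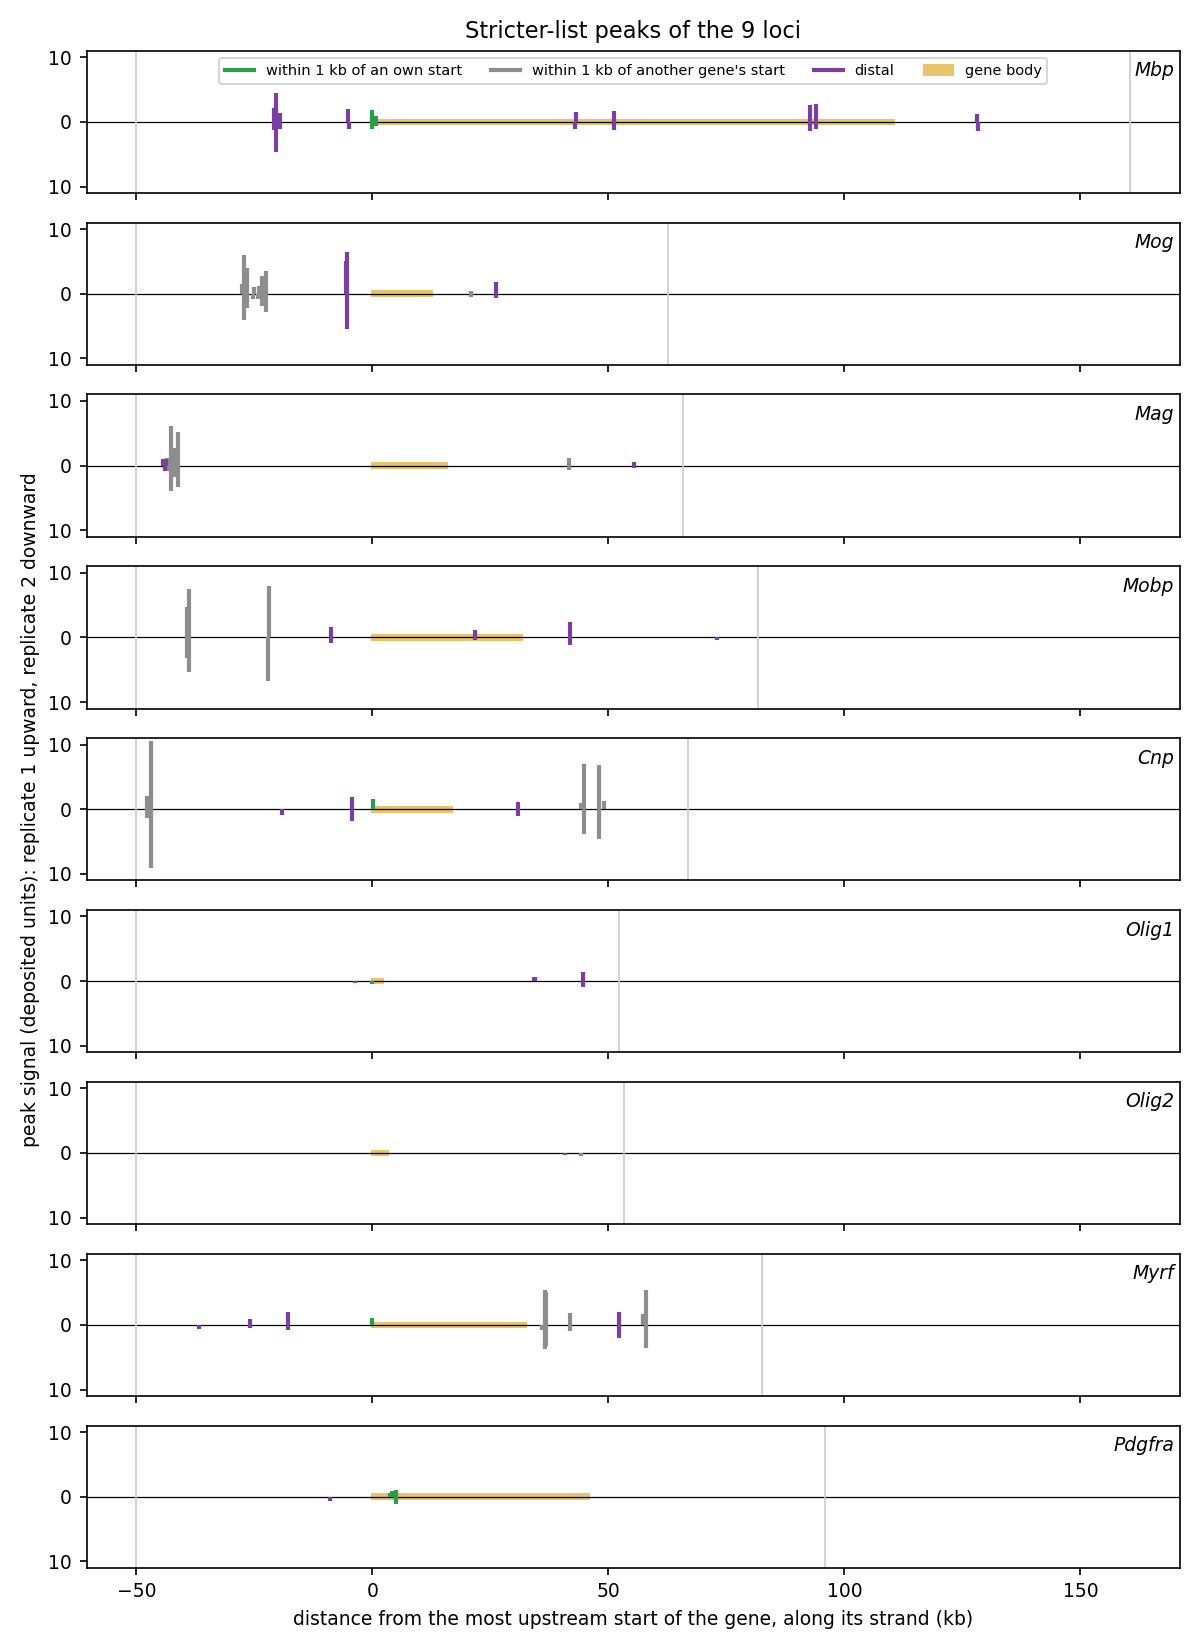
Stricter peaks in each locus by distance in kb from the most upstream start of the gene, along its strand, with the authors' signal upward for replicate 1 and downward for replicate 2. Green lines are at a start of the gene, grey lines at a start of another gene and purple lines distal, the yellow bar is the gene body and thin grey lines are the ends of the locus; the tallest lines in the loci of Mag, Mobp, Cnp and Myrf are grey.

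In the loci of Mag, Mobp, Cnp and Myrf the strongest peak was at a start of a neighbour in both replicates. How common this is over loci of all coding genes was not computed. In the Cnp locus the strongest peak was the promoter of Acly, which makes cytosolic acetyl-CoA, at 10.5 and 9.13. In the Mobp locus it was that of Rpsa, a ribosomal protein gene, at 7.93 and 6.66. In the Mag locus it lay at starts of Usf2 and Gm4673, at 6.08 and 3.96. None of these 3 starts belongs to a myelin gene. In the Myrf locus it was the promoter of Fads1, a fatty acid desaturase, at 5.46 in replicate 1, and the shared promoter region of Fen1 and Tmem258, at 3.71, in replicate 2. In the loci of Mbp, Mog and Olig1 the strongest peak was distal, and in that of Pdgfra it was at an own start. The Olig2 locus had no stricter peak in replicate 1, and the strongest in replicate 2 was the start peak of Olig1. Starts of Gabbr1, a subunit of the GABA-B receptor, also carried up to 5.92 and 4.03 in the Mog locus.

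The strongest distal peak of the 9 loci lay upstream of Mog, in intergenic DNA 5.36 kb before its first start at chr17:37028661-37028860. Its signal was 6.38 in replicate 1 and 5.398 in replicate 2 (5.89 ± 0.695, SD, n = 2), above 91.8% and 94.2% of all stricter peaks of the same library. Replicate 1 had a second peak beside it at chr17:37028881-37029060, with a signal of 5.03, which was not in the stricter list of replicate 2. All 180 bases of that second stretch had an FDR under 0.001 in replicate 2 as well, with 3 footprints there and 4 in replicate 1. The open region was thus found in both libraries, and the lists divided it differently. Inside the gene body of Mog itself there were 0 stricter peaks.

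Mbp had the most distal peaks, 9 in each replicate, and all 9 were shared. The strongest lay 20.3 kb upstream of the first start, at chr18:82454661-82454940, with 4.48 and 4.62 (4.55 ± 0.0979, SD, n = 2). It was the middle of a cluster of 3 in intergenic DNA. The others lay 20.9 kb upstream, of 2.08 and 1.31, and 19.5 kb upstream, of 1.43 and 1.16. A further one lay 5.07 kb upstream, of 1.97 and 1.12. Inside the gene, intronic peaks lay 43.1, 51.2, 92.7 and 93.9 kb downstream of the first start. The last of these was of 2.77 and 1.13, the widest gap between replicates among the distal peaks of Mbp. The last distal peak lay beyond the gene, in an intron of Zfp236, 128.0 kb from the first start.

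In the other loci the strongest shared distal peaks were weaker. Cnp had one 4.25 kb upstream in an intron of Ttc25, of 1.91 and 1.76 (1.84 ± 0.11, SD, n = 2). Mobp had one 41.9 kb downstream of its first start, beyond its gene body in an intron of Gm38642, of 2.43 and 1.16 (1.80 ± 0.894). For Myrf it lay 52.1 kb downstream in an intron of Fads1, of 1.93 and 2.00 (1.97 ± 0.0492). These 3 positions all fall within annotated introns of other genes. Olig1 had a single shared distal peak, 44.5 kb downstream in an intron of Gm15966, of 1.42 and 0.847 (1.13 ± 0.405). That of Mag lay 43.8 kb upstream in an intron of Lsr, next to the starts of Usf2 and Gm4673, and was of 1.01 and 0.790 (0.902 ± 0.158). Olig2 and Pdgfra had no distal stricter peak that both replicates shared.

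The density of peaks depended on how far the locus reached. With 50 kb of flank, the median over the 9 loci was 5.23 stricter peaks per 100 kb in replicate 1 and 5.70 in replicate 2 (5.46 ± 0.336, SD, n = 2), against 3.59 and 4.05 over all coding genes. With 25 kb it was 4.49 in both replicates, beside 3.61 and 4.02. The widest window and the gene body alone gave no such margin. With 100 kb it was 3.54 and 3.86, beside 3.45 and 4.003. In the gene body alone it was 3.08 and 0, beside 3.02 and 3.43. The members thus lay above the coding median with 25 or 50 kb of flank, and close to it or below it with 100 kb or the gene body alone.

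**Figure D4:**
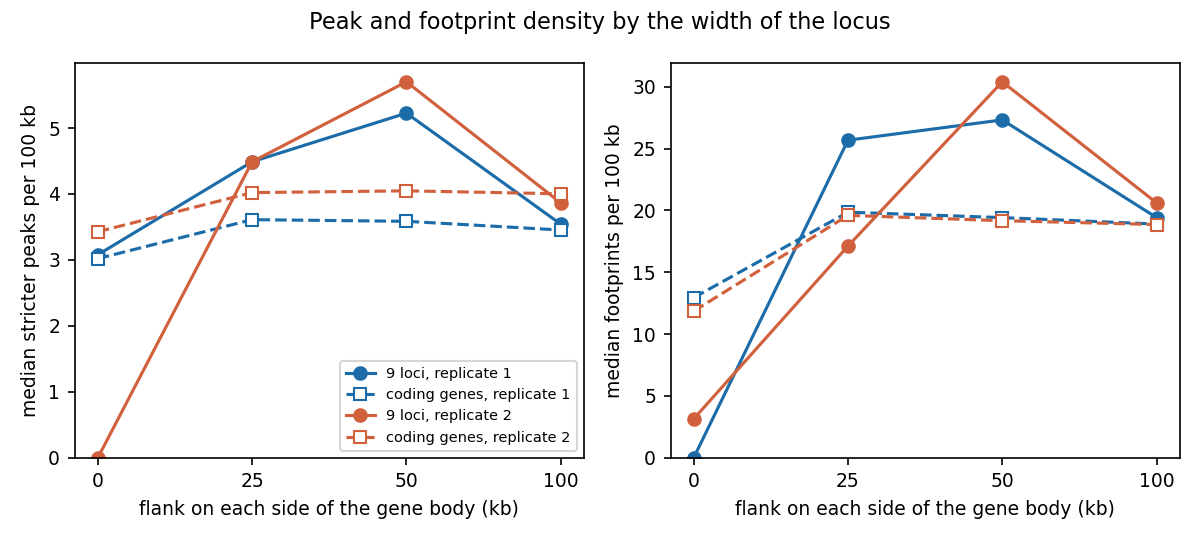
Median over the 9 loci (filled circles) and over all 21938 coding genes (open squares) of stricter peaks per 100 kb (left) and footprints per 100 kb (right), by the flank added on each side of the gene body in kb, for replicate 1 (blue) and replicate 2 (orange). The 9 loci stand highest with 50 kb, at 5.23 and 5.70 peaks, and their footprint medians for gene bodies alone are 0 and 3.15.

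Gene bodies of the members held few peaks, apart from those of Mbp and Pdgfra. Mbp had 6 and 7 stricter peaks and 25 and 26 footprints in its body of 110.5 kb. Pdgfra had 3 and 1 with 17 and 8 footprints in 45.9 kb. Mobp had 1 in each replicate, Cnp and Myrf 1 in replicate 1 alone, and Mog, Mag, Olig1 and Olig2 0 in both. At least 1 stricter peak was thus in the gene body of 5 of 9 members in replicate 1 and 3 of 9 in replicate 2, while 63.1% and 63.0% of coding genes had one. The loci of Olig1 and Olig2 were also sparse with their flanks: 3 and 3 peaks for Olig1, and 0 and 2 for Olig2, both of the latter near Olig1. Those of Mog (11 and 9), Myrf (10 and 9), Cnp (9 and 7) and Mag (8 and 8) were the fullest per length in both replicates, and each had 4 to 8 of its peaks at starts of other genes.

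The share of bases with an FDR under 0.001 gave no such difference. Its median over the 9 loci was 1.51% and 1.66% (1.58 ± 0.108%, SD, n = 2), and 1.47% and 1.62% over all coding genes. Mog stood highest, at 4.68% and 4.998%, above 88.2% and 89.2% of coding genes. Olig2 stood lowest in replicate 1, at 0%, and Pdgfra in replicate 2, at 0.19%. The loci of Olig1, Olig2 and Pdgfra were the 3 lowest in both replicates.

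Footprints were densest and sparsest in the same loci in both replicates. The 9 loci held 343 and 315 footprints, of 7 to 45 bp and 7 to 46 bp, and the median length was 11 bp in each library. The median density was 27.3 and 30.4 per 100 kb (28.9 ± 2.18, SD, n = 2), against 19.4 and 19.2 over coding genes. With 25 kb of flank it was 25.7 and 17.1 beside 19.9 and 19.6, so that replicate 2 lay below the coding genes, and with 100 kb it was 19.4 and 20.6 beside 18.9 in each replicate. The lowest was that of Olig2 at 3.88 and 1.94, with 4 and 2 footprints. The highest was that of Mog at 52.4 and 61.2, with 59 and 69. Of the footprints, 63.8% and 67.9% lay in a stricter peak of the same library, close to 64.1% and 66.7% of all footprints. With gene bodies alone, the median was 0 and 3.15 per 100 kb against 12.9 and 11.9 over coding genes.

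Peaks of the 9 loci were mostly found in both replicates. Of the stricter peaks, 48 of 61 in replicate 1 (78.7%, 95% Wilson interval 66.9 to 87.1%) and 48 of 57 in replicate 2 (84.2%, 72.6 to 91.5%) overlapped a peak of the other replicate, beside 76.0% and 66.1% of all stricter peaks. Of the 13 that replicate 1 alone listed, 7 were in the longer list of replicate 2, and 9 held a base with an FDR under 0.05 there. Of the 9 that replicate 2 alone listed, 5 were in the longer list of replicate 1. A base with an FDR under 0.05 was missing in the other library for 4 and 3 of them, among them both weak peaks 34.2 and 34.5 kb downstream of Olig1. Such counts were not made over all stricter peaks that 1 replicate alone listed. Footprints overlapped less often, 187 of 343 (54.5%, 49.2 to 59.7%) and 193 of 315 (61.3%, 55.8 to 66.5%), beside 51.0% and 50.6% of all footprints. The intervals cover counting error only.

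The wider CTCF form seen at Mobp was then searched in the central 200 bp of all shared distal peaks, with 1 mismatch allowed. This search was chosen after the sequences had been seen, and its counts are a description. With 1 mismatch, the wider form was in 17 of the 22 (77.3%) and in 50.05% of all 25112, so such letters are common and a match shows no CTCF site. A match to it lay inside footprints of both replicates in 13 of the 22 (59.1%), against 25.1% of all. Of the 13, 6 were among the 9 peaks of Mbp, 3 of 3 were at Mobp, 2 of 3 at Myrf, 1 of 2 at Mog and 1 of 2 at Cnp. Outside the Mbp locus the count was 7 of 13. Exact matches to the wider form were in 8 of 22 (36.4%), against 19.7%. These were 5 peaks of Mbp and 3 of Mobp, among them the one that prompted the search, and the other 10 peaks held 0. The strongest shared distal peaks of Mog, Mbp, Myrf, Olig1 and Mag were not among the 13, and those of Mobp and Cnp were.

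Signal was compared between replicates as log2 of replicate 1 over replicate 2. Its median was 0.41 over all 46923 shared stricter peaks and 0.59 over the 48 of the member loci. The 13 distal peaks with a CTCF-type match inside footprints of both replicates had a median of 0.94, and the other 9 had 0.24. Over all shared distal peaks the medians were 0.70 with such a match and 0.15 without. Of the 13, 10 lay above the median of all shared peaks, and of the 9, 3 did. The strongest distal peaks of Mbp, at -0.04, and of Myrf, at -0.05, were nearly equal between the replicates, while the peak 26.2 kb downstream of Mog was at 1.55. With 2 libraries, a difference between replicates cannot be told apart from one between their pools or their preparation.

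**Figure D5:**
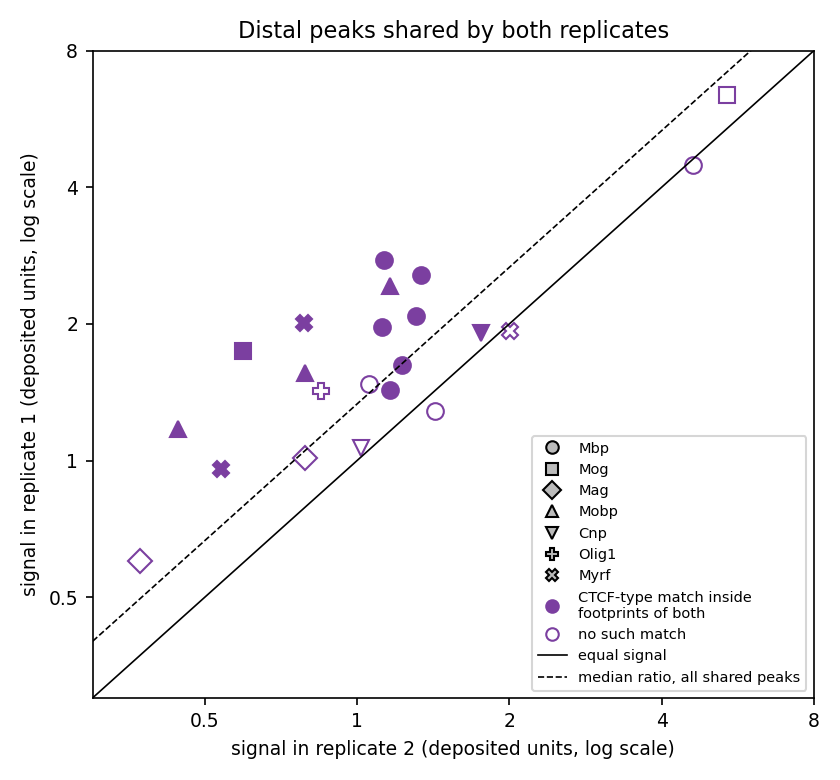
Signal in replicate 1 against replicate 2, both on log axes in the authors' deposited units, for the 22 distal stricter peaks of the member loci that both replicates shared, with 1 symbol per gene. Filled symbols have a CTCF-type match inside footprints of both replicates; 10 of these 13 lie above the dashed line, which is the median ratio over all shared peaks, and the solid line marks equal signal.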

How the data were processed

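DNase-seq libraries of cerebellum from 1 group were used, as 2 biological replicates numbered as in the labels. Nothing in the labels shows that the pools came from different animals, and the spread between replicates may hold technical error only. Each deposited list was made from 1 library on mm10, per the text deposited with the files. For aligner, callers and read numbers, the sources used here give nothing. The authors' peak signal is a coverage measure whose scale is not given. Its values were whole multiples (within 0.05) of 0.00714 in replicate 1 and 0.00632 in replicate 2, and the median stricter peak held 196 and 152 such steps; if a step is 1 cut, the peak at the start of Mbp rests on 262 and 169 cuts. The authors deposited an FDR of the cut rate, a q-value, for intervals under 0.05, and footprints with the constant FDR 0.01. Of each library's peak lists, the shorter was taken as stricter (61776 and 71141 peaks), since 100% of its peaks held a base with an FDR under 0.001, against 64.1% and 63.9% of the longer (99710 and 114935).

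Overlaps of 1 bp or more counted, within libraries and against GENCODE M21 (Python 3.11.15, pandas 2.3.3, pysam 0.24.0), after a test on simulated intervals. Alleles were not resolved. Members, gene lists, motifs and naming rules were chosen with earlier results of these data known. For each locus the text names the strongest start peak, the strongest shared distal peak by mean signal over the library median, and neighbours whose start is the strongest peak; in each other gene list, the 2 genes with the highest signal in both replicates and the first 2 in the alphabet with none. The Pdgfra stretch, single starts, and the wider CTCF form with its search with a mismatch were added after the values were seen. A further marker list was searched and is not reported here.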

Additional observations from a re-analysis of the deposited data

How the results depend on the processing

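The number of members with a start peak in both replicates was 2, and it was 7 with the longer list, 1 with the stronger part of the stricter list, and 3 to 4 when either replicate was left out. A start window of 500 bp, of 2 kb (3 members) or coding transcripts alone stayed within 1.5 times. For the stronger part of the list, these windows and coding transcripts alone, the shares over coding genes were not computed. The median of stricter peaks per 100 kb, 5.46, was 8.31 with the longer list and 3.41 with the stronger part of the stricter list. It was 4.49 with 25 kb, 3.70 with 100 kb and 1.54 with the gene body alone, and 5.23 to 5.70 without a replicate. Footprints per 100 kb, 28.9, were 20.3 inside stricter peaks, 21.4 with 25 kb, 20.01 with 100 kb and 1.57 in gene bodies, and 27.3 to 30.4 without a replicate. The share of bases with an FDR under 0.001, 1.58%, was 2.87% at 0.05, 2.17% at 0.01 and 0.0862% in gene bodies, and 1.51 to 1.66% without a replicate. Shared stricter peaks, 81.5% on average, were 67.9% when the overlap had to cover 0.5 of both peaks, 73.2% in the longer lists and 91.6% against the longer list. Shared footprints, 57.9%, were 45.98% at an overlap of 0.5 and 74.9% inside stricter peaks of both replicates. These alternatives count different peaks or bases by construction. Read numbers were not given, so the depth that limits weak peaks is known only through the steps of the signal.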
